A study of Xenopus tropicalis with 13 samples.

Results

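The long bins of the neurula are the gene segments of at least 600 bases that the authors listed as used more in embryos injected with a morpholino in a study of Taf15, at stage 15, and that held at least 1 read in uninjected embryos of that stage. A bin is a stretch of a gene model between neighbouring exon or transcript boundaries, numbered within its gene by position (E001 and upward). Of the 1429 bins listed at stage 15, 327 met both conditions (22.9%), and they lay in 294 host genes. Another 26 listed bins of at least 600 bases had no uninjected read and were set aside. Each listed bin was past an adjusted p of 0.1 with at least a 2-fold higher usage, a score that the authors fitted for a bin within its gene. The list held at most about 0.744% of the bins tested. The members were thus selected on their width, on their reads in uninjected embryos and on the usage test behind the list, so their levels and ratios are given as descriptions, with no test.

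The libraries were made from polyadenylated RNA, each from 1 whole Xenopus tropicalis embryo, a diploid frog used as a model of vertebrate development. The 3 MO-injected embryos had received an antisense morpholino oligonucleotide (MO), which blocks translation or splicing of its target RNA, in a study of Taf15, and the labels do not say which morpholino each embryo received. They were set against 4 uninjected embryos at stage 15, when the neural plate folds, and 3 MO-injected and 3 uninjected embryos were compared in the same way at stage 10, the start of gastrulation. The embryos are separate animals, uninjected embryos are the control rather than embryos given a mismatch morpholino, and 1 uninjected embryo placed at stage 15 by its title and stage field is described as stage 10 elsewhere in its labels. The tables carry no library totals, so the depth is unknown, and reads are raw counts: the mean that the authors deposited for each bin equals the plain mean of these counts. A number in a count column names an embryo within its group and is not tied to a labelled animal. In whole embryos, fewer cells that express a gene and less RNA per cell cannot be told apart.

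Taf15 is a nuclear RNA-binding protein that binds nascent transcripts and contacts RNA polymerase II and splicing factors. When splicing of an intron is incomplete, the intron stays in the polyadenylated RNA, and reads cover a long segment between exons. Such transcripts may be held in the nucleus or degraded, and they often cannot give the full protein. Long segments of a gene model can also be untranslated ends or large exons, and no column used here says which kind each bin is.

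In raw reads, long bins held few in uninjected embryos and several times more in MO-injected embryos, an order that turned under scaling to each embryo's total over listed bins (median log2 ratio -0.38, 38 members without overlap). The median member had 25.2 reads per kb (1000 bases) in MO-injected embryos, with a range of 1.09 to 3178, and 3.02 reads per kb in uninjected embryos, with a range of 0.0632 to 84.1. The median log2 ratio of mean raw reads, MO-injected over uninjected with a pseudocount of 0.5 reads, was 2.77, beside 2.72 over all 1429 listed bins and 2.63 over the 1200 of them with an uninjected read. The ratio was at least 2-fold in 319 members, at least 8-fold in 138 and at least 32-fold in 32. It was below 1 in 4 members, kcnn3 E004, slc24a3 E001, shbg E004 and 1 bin of a gene with an Xetro identifier only. In that last bin all MO-injected embryos were below all uninjected embryos. All MO-injected embryos were above all uninjected embryos in 264 members (80.7%), beside 75.5% of all listed bins and 75.1% of the 1200, and the embryos of the groups overlapped in the other 63.

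**Figure D1:**
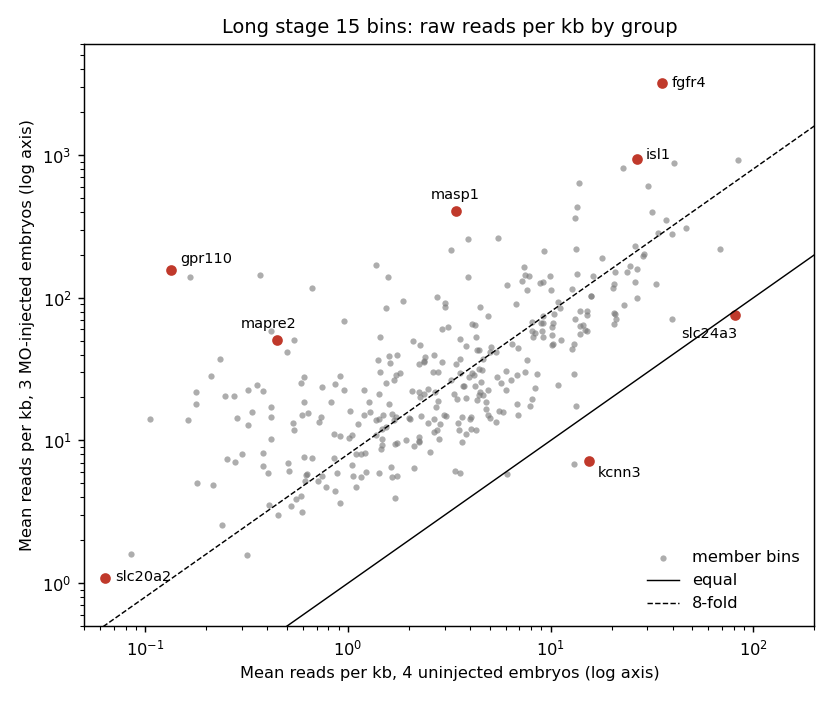
Mean reads per kb of the 327 long bins in MO-injected embryos (n = 3) against uninjected embryos (n = 4) at stage 15, on log axes. Each point is 1 bin, and nearly all points lie above the line of equal reads, as the listing required of their usage.

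Usage, the authors' fitted score for a bin within its gene, had smaller log2 changes than raw reads. It is a measure unlike raw reads and was not checked against the plain share of a gene's reads. In the authors' deposited table the median log2 usage change of the members, MO-injected over uninjected, was 1.55 with a range of 1.00 to 4.55, beside 1.57 over the 1200 listed bins with an uninjected read. Over all listed bins, which include those with no uninjected read, it was 1.75 in the authors' deposited table. The raw ratio exceeded the usage change in 305 members and was below it in 22. A total of 92 members had a usage change of at least 4-fold in the authors' deposited table. The width of a member was little related to either measure, with a Spearman correlation across members of 0.13 with the log2 ratio and -0.06 with the log2 usage change, where bins of 1 gene share reads. Median log2 ratios were 2.71 for the 133 members under 1000 bases, 2.72 for the 113 from 1000 to under 2000 bases, 2.98 for the 75 from 2000 to under 5000 bases and 2.83 for the 6 of at least 5000 bases.

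The 8 members with the smallest adjusted p in genes with a RefSeq symbol covered receptor signalling, complement, the cytoskeleton, the centrosome, the clock and mRNA export. The first was bin E003 of fgfr4, a receptor tyrosine kinase for fibroblast growth factors, at bases 74879002 to 74881098 of scaffold 3 on the plus strand (2097 bases; all coordinates are those of the deposited table, with no genome build stated in the sources used here). It had 4414, 8554 and 7022 reads in the MO-injected embryos, against 71, 56, 78 and 93 reads in the uninjected embryos. Every MO-injected embryo was far above every uninjected embryo, and this bin alone was the most heavily read member. Mean reads per kb were 3178 ± 998 in MO-injected embryos (SD, n = 3) and 35.5 ± 7.33 in uninjected embryos (SD, n = 4). In the authors' deposited table its usage was 1.56 higher on the log2 scale (adjusted p = 8.62e-151). The level of fgfr4 in the authors' deposited level table was higher by 1.86 on the log2 scale (SE 0.211, adjusted p = 3.15e-16). A gene's level counts the reads of its bins, and the part of E003 in this change was not tested.

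Bin E008 of masp1, which encodes a protease of the lectin pathway of complement, spans 954 bases (scaffold 6, 126449298 to 126450251, plus strand). It had 284, 387 and 480 reads in MO-injected embryos, against 4, 0, 4 and 5 in uninjected embryos. Bin E005 of mapre2, a microtubule plus-end binding protein, spans 2237 bases (scaffold 6, 36877043 to 36879279, minus strand) and had 113, 98 and 127 reads in MO-injected embryos, against 2, 2, 0 and 0 in uninjected embryos. Both bins were close to empty in uninjected embryos and read in every MO-injected embryo, with no overlap. Per kb, masp1 E008 had 402 ± 103 reads in MO-injected embryos (SD, n = 3) and 3.41 ± 2.32 in uninjected embryos (SD, n = 4), and mapre2 E005 had 50.4 ± 6.48 and 0.447 ± 0.516. Their log2 usage changes in the authors' deposited table were 2.89 (adjusted p = 1.03e-149) for masp1 and 3.62 (adjusted p = 1.42e-107) for mapre2.

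Bin E033 of mcm3ap, whose product is a scaffold of nuclear mRNA export, was read in all uninjected embryos. Its 635 bases (scaffold 9, 48654639 to 48655273, plus strand) held 202, 264 and 295 reads in MO-injected embryos, against 15, 10, 34 and 21 in uninjected embryos. Bin E030 of per2, a repressor of the circadian clock (1139 bases; scaffold 9, 35471131 to 35472269, minus strand), held 154, 382 and 362 reads in MO-injected embryos, against 4, 2, 9 and 10 in uninjected embryos. Neither bin overlapped between groups, and the first MO-injected embryo had the fewest reads of its group in both. Usage changes in the authors' deposited table were 1.5 (adjusted p = 2.40e-100) for mcm3ap and 2.16 (adjusted p = 2.74e-100) for per2 on the log2 scale.

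Among the remaining 3, bin E009 of casd1, an enzyme that acetylates sialic acids, had 131, 135 and 284 reads in MO-injected embryos, against 0, 0, 1 and 5 in uninjected embryos (1086 bases; scaffold 6, 112006434 to 112007519, minus strand). Bin E005 of the centriole gene cep135 had 134, 149 and 171 reads in MO-injected embryos, against 6, 2, 1 and 0 in uninjected embryos (698 bases; scaffold 1, 183198326 to 183199023, minus strand). Bin E016 of plk3, a polo-like kinase, had 372, 643 and 682 reads in MO-injected embryos, against 35, 28, 46 and 49 in uninjected embryos (3995 bases; scaffold 4, 103175871 to 103179865, minus strand). All 3 were separated between groups. The casd1 and cep135 bins had few uninjected reads, whereas plk3 E016 was read in every uninjected embryo. In the authors' deposited table the log2 usage changes were 3.29 for casd1 (adjusted p = 1.93e-87), 2.81 for cep135 (adjusted p = 1.10e-86) and 1.46 for plk3 (adjusted p = 8.26e-63).

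**Figure D2:**
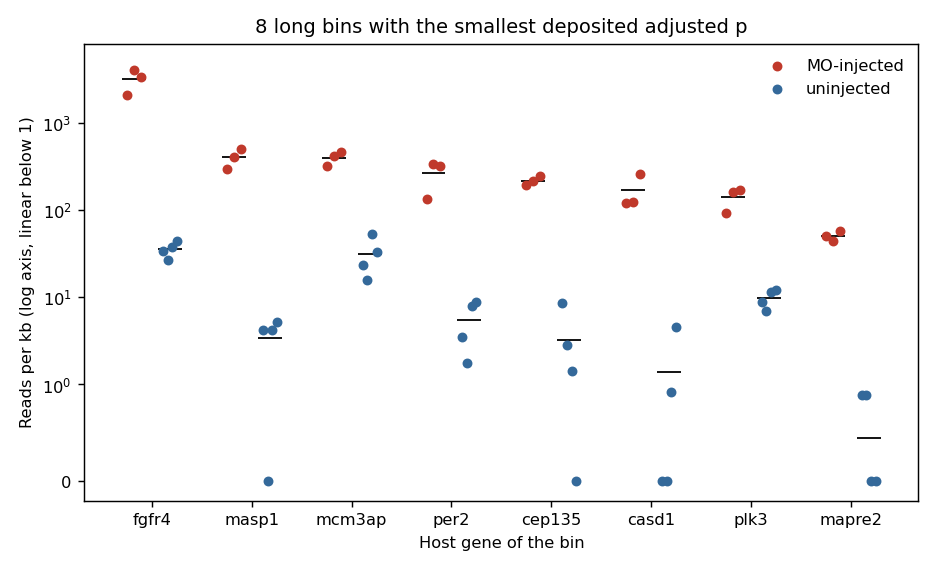
Reads per kb in each embryo, on a log axis, for the 8 members with the smallest adjusted p in genes with a RefSeq symbol, MO-injected embryos on the left of uninjected embryos for each gene. In every gene the 3 MO-injected embryos sit above the 4 uninjected embryos.

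The authors' deposited list of retained introns gives only the top 10 named genes of each stage, and 7 of those at stage 15 host a member. Among the 7, fgfr4, masp1, mapre2, mcm3ap, per2 and gpr110 hold the members of smallest adjusted p. The overlap is thus not a share of all retained introns. That list gives ctdsp2 with 22 retained introns throughout the transcript, and fgfr4 with the 1st, masp1 with the 4th, mapre2 with the 3rd and gpr110 with the 9th intron. It gives mcm3ap with a count of 2, placed throughout the 23rd intron, and per2 with 2, the 1st and 2nd. In all 7 genes the count equals the gene's number of listed bins. For other hosts no such annotation was used, so a long bin is not thereby called an intron.

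The largest ratio belonged to bin E012 of gpr110, an adhesion G protein-coupled receptor, with 227, 347 and 304 reads in MO-injected embryos, against 0, 0, 0 and 1 in uninjected embryos. Since the uninjected group held 1 read, the ratio of means was 1171 with an interval of 209.6 to 46291 (exact, 95%, covering counting error only). Its usage change in the authors' deposited table was 4.55 on the log2 scale, the largest of the members. Bin E005 of shoc2, a scaffold of RAF activation, had the second largest ratio among genes with a symbol, 7.04 on the log2 scale (interval of the linear ratio 69.8 to 15535), but its MO-injected reads were unequal, at 72, 218 and 4, against 0, 0, 1 and 0 in uninjected embryos. The ranking is then followed by masp1, casd1 and fgfr4, whose reads are given above.

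The bins least read in uninjected embryos gave ratios that are wide in their counting error. Bin E014 of slc20a2, a phosphate transporter, had 5, 4 and 4 reads in MO-injected embryos, against 0, 0, 0 and 1 in uninjected embryos, a ratio of 17.3 (interval 2.60 to 737). Bin E025 of frem3, an extracellular matrix protein, had 1, 9 and 4 reads in MO-injected embryos, against 0, 0, 1 and 0 in uninjected embryos, a ratio of 18.7 (interval 2.84 to 789). Bin E023 of phf21a, a component of a histone demethylase complex, had 30, 96 and 75 reads in MO-injected embryos, against 0, 0, 1 and 1 in uninjected embryos, a ratio of 134 (interval 36.6 to 1114). Bin E007 of otc, the urea cycle enzyme ornithine transcarbamylase, rested on 1 embryo, with 0, 183 and 0 reads in MO-injected embryos, against 0, 2, 0 and 0 in uninjected embryos. Over all members, 22 had a single uninjected read, 58 had 1 to 3, 72 had 4 to 9 and 197 had 10 or more.

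Among genes with a symbol, the 5 bins most heavily read per kb in uninjected embryos had log2 ratios of -0.10 to 2.79. Bin E001 of slc24a3, a sodium, calcium and potassium exchanger, had 52, 84 and 66 reads in MO-injected embryos, against 49, 71, 77 and 91 in uninjected embryos. Bin E021 of vill, a villin-like actin regulator, had 133, 127 and 362 reads in MO-injected embryos, against 65, 53, 51 and 89 in uninjected embryos. The slc24a3 reads overlapped fully while those of vill did not overlap. Bin E002 of gpkow, a spliceosome-associated protein, had 219, 743 and 262 reads in MO-injected embryos, against 39, 28, 139 and 41 in uninjected embryos. Bin E010 of wdr1, a cofactor of actin filament disassembly, had 23, 73 and 36 reads in MO-injected embryos, against 10, 11, 36 and 42 in uninjected embryos. Bin E033 of rapgef2, a guanine nucleotide exchange factor for Rap, had 170, 129 and 204 reads in MO-injected embryos, against 18, 15, 29 and 33 in uninjected embryos. Of these, gpkow and rapgef2 were separated between groups, and wdr1 overlapped.

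Some members were listed as used more without holding clearly more reads. The following are the 5 smallest ratios among genes with a symbol. Bin E004 of kcnn3, a calcium-activated potassium channel, had 6, 6 and 12 reads in MO-injected embryos, against 11, 18, 15 and 25 in uninjected embryos, a log2 ratio of -1.06. Its usage change in the authors' deposited table was 1.28, and the level of kcnn3 had a log2 fold change of -3.83. For slc24a3 the log2 ratio was -0.10, with a usage change of 1.12 and a level change of -2.10 in the authors' deposited tables. Bin E004 of shbg, sex hormone-binding globulin, had 0, 6 and 7 reads in MO-injected embryos, against 0, 3, 14 and 1 in uninjected embryos. Bin E006 of ctif, a factor of cap-binding complex dependent translation, had 18, 31 and 21 reads in MO-injected embryos, against 4, 18, 44 and 5 in uninjected embryos. Bin E002 of the receptor gene gpr75 had 4, 8 and 4 reads in MO-injected embryos, against 4, 5, 1 and 3 in uninjected embryos. All 5 overlapped between groups, and in the authors' deposited table ctif and gpr75 also had lower levels, by -2.05 and -1.33 on the log2 scale.

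Of the widest members, 4 are described here, and they ranged from thinly to well read. Bin E001 of lig3, a DNA ligase, spans 8080 bases and had 191, 347 and 755 reads in MO-injected embryos, against 23, 61, 180 and 32 in uninjected embryos. Bin E011 of pten, a lipid phosphatase that opposes PI3-kinase signalling, spans 6871 bases and had 226, 489 and 217 reads in MO-injected embryos, against 45, 10, 54 and 31 in uninjected embryos. Both bins were separated between groups. Bin E001 of c15orf61 (5631 bases) had 22, 20 and 86 reads in MO-injected embryos, against 1, 9, 3 and 2 in uninjected embryos. Bin E010 of prx, the gene of the myelin-associated protein periaxin (5480 bases), had 9, 5 and 12 reads in MO-injected embryos, against 2, 1, 3 and 1 in uninjected embryos. Both were also separated, at far fewer reads.

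At the width limit, the narrowest members were rapgef2 E033 at 602 bases, ncan E011 at 606 bases and cdh22 E006 at 608 bases. ncan E011, of the proteoglycan neurocan, had 6, 12 and 10 reads in MO-injected embryos, against 1, 0, 1 and 2 in uninjected embryos, and cdh22 E006, of a cadherin, had 6, 11 and 17 against 0, 1, 1 and 0. Just outside at 598 bases lay herpud1 E005, with 344, 196 and 201 reads in MO-injected embryos, against 61, 14, 26 and 55 in uninjected embryos. The other bins of 598 bases were rpl22l1 E013, with 12, 11 and 2 reads in MO-injected embryos, against 0, 0, 1 and 2 in uninjected embryos, and entpd1 E019, with 6, 2 and 3 against none. Densely and thinly read bins thus lay on both sides of the limit.

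Summed over the members, all MO-injected embryos had more reads than all uninjected embryos. The members held 26605, 42340 and 46026 reads in MO-injected embryos, against 2970, 2407, 4608 and 3632 in uninjected embryos. Bins fgfr4 E003 and isl1 E008 together made up 24.5%, 24.8% and 19.6% of these reads in MO-injected embryos, against 4.75%, 3.20%, 3.43% and 4.16% in uninjected embryos. Without both, the totals ran from 20090 to 37027 in MO-injected embryos, against 2330 to 4450 in uninjected embryos, still with no overlap. The share of all listed-bin reads that fell in the members was alike, at 52.7% to 56.5% in MO-injected embryos and 48.9% to 54.9% in uninjected embryos.

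The embryos of a group did not contribute equally. Median reads per kb over the members were 17.7, 23.2 and 34.7 in the MO-injected embryos, against 2.20, 1.93, 3.09 and 2.66 in the uninjected embryos. The third MO-injected embryo was alone the highest of its group in 187 members, the second in 87 and the first in 43, and the first was alone the lowest in 189. The third uninjected embryo was alone the highest in 106 members, against 61, 33 and 74 for the others. Library depth is unknown, and its part in these differences was not tested. No read fell in 4, 4 and 2 members in the MO-injected embryos, against 66, 67, 53 and 49 members in the uninjected embryos.

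**Figure D3:**
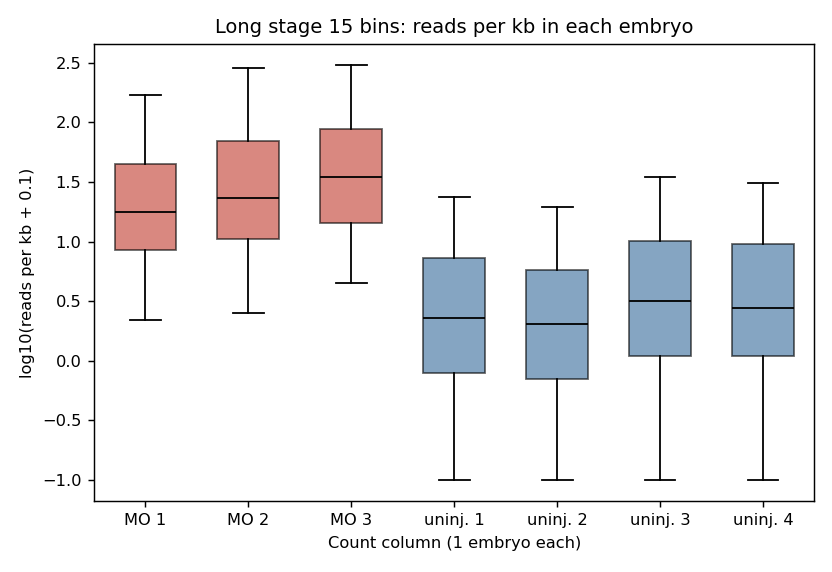
Reads per kb of the 327 long bins in each stage 15 embryo, MO-injected embryos left of uninjected embryos. The medians were 17.7 to 34.7 in MO-injected embryos and 1.93 to 3.09 in uninjected embryos.

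Relative spread was larger among uninjected embryos, where counts were low. The median coefficient of variation over embryos was 47.8% in MO-injected embryos and 73.2% in uninjected embryos. Without the first MO-injected embryo the MO-injected value was 31.7%. Among the 53 members with a mean of at least 20 uninjected reads it was 42.0% in MO-injected embryos and 51.8% in uninjected embryos, and 18 of the 53 varied more among MO-injected embryos. MO-injected embryos lay within 2-fold of each other in 110 members, and uninjected embryos in 33. These counts are not alike, since they cover 3 and 4 embryos. An uninjected embryo had no read in 135 members, and an MO-injected embryo in 9, and an embryo without reads cannot lie within 2-fold of one with reads. A single MO-injected embryo held at least 50% of the group's reads in 149 members and at least 80% in 2, otc E007 and, named after its values were seen, stard9 E011, with 8, 4 and 80 reads in MO-injected embryos, against 2, 1, 1 and 0 in uninjected embryos.

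Among the members with a mean of at least 20 uninjected reads in genes with a symbol, the most variable in uninjected embryos were lig3 E001, lzts2 E006, klhdc3 E001, gpkow E002 and dusp16 E002, with coefficients of 98.0% to 78.2%. Bin E006 of lzts2, a regulator of beta-catenin, had 38, 410 and 160 reads in MO-injected embryos, against 16, 23, 78 and 16 in uninjected embryos. Bin E001 of klhdc3, a ubiquitin ligase substrate receptor, had 48, 326 and 257 reads in MO-injected embryos, against 7, 53, 124 and 44 in uninjected embryos. Bin E002 of dusp16, a phosphatase of MAP kinases, had 53, 154 and 112 reads in MO-injected embryos, against 10, 21, 49 and 12 in uninjected embryos. In all 3 the third uninjected embryo was the highest of its group, and in lzts2 and klhdc3 it exceeded the lowest MO-injected embryo.

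The least variable of the same members were dus4l E001, fgfr4 E003, fam122b E003, lrp2bp E001 and slc24a3 E001, at 17.9% to 24.3%. Bin E001 of dus4l, a tRNA dihydrouridine synthase, was even in both groups, with 246, 255 and 263 reads in MO-injected embryos, against 53, 45, 69 and 56 in uninjected embryos. Bin E003 of fam122b had 175, 243 and 225 reads in MO-injected embryos, against 29, 18, 21 and 22 in uninjected embryos. Bin E001 of lrp2bp, which binds the receptor megalin, was even only in uninjected embryos, with 149, 52 and 590 reads in MO-injected embryos, against 48, 39, 44 and 65. The lrp2bp groups overlapped, and those of dus4l and fam122b did not.

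Most host genes held a single long bin. There was 1 member in 269 hosts, 2 in 21 and 3 or more in 4, with at most 7 in a gene known only by an Xetro identifier. In 219 hosts the member was the sole listed bin of any width. In snrnp48, a protein of the minor spliceosome, bin E031 (4112 bases) had 71, 157 and 117 reads in MO-injected embryos, against 4, 2, 0 and 4 in uninjected embryos. In the same gene, E032 had 94, 102 and 68 reads in MO-injected embryos, against 5, 2, 0 and 0 in uninjected embryos, and E033, which abuts it, had 84, 86 and 59 against 16, 0, 8 and 1. In none of the 3 did the groups overlap, and mean reads per kb in MO-injected embryos were 28.0 for E031, 94.3 for E032 and 35.4 for E033.

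In dgka, a diacylglycerol kinase, the second MO-injected embryo was the highest in all 3 members. Bin E030 (4359 bases) had 181, 1262 and 411 reads in MO-injected embryos, against 24, 50, 43 and 20 in uninjected embryos, and E009 had 40, 354 and 84 against 4, 13, 12 and 16. Bin E011 had 62, 142 and 93 reads in MO-injected embryos, against 0, 0, 0 and 11 in uninjected embryos. In ube2h, a ubiquitin-conjugating enzyme, E022 had 193, 143 and 314 reads in MO-injected embryos, against 78, 39, 52 and 61 in uninjected embryos. Its bin E025 had 43, 50 and 78 reads in MO-injected embryos, against 21, 8, 15 and 18 in uninjected embryos, and E017 had 22, 47 and 88 against 5, 0, 3 and 13. Bins of 1 gene share transcripts and are not independent, and there were 6 pairs of members that abut, among them snrnp48 E032 and E033, arnt2 E006 and E007, and zmym6nb E003 and E004.

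In position, 165 members lay on the plus strand and 162 on the minus strand, and 286 lay on scaffolds 1 to 10. The first numbered bin of the gene, E001, made up 63 members, 25 on the plus strand, where it is the 5′ end of the gene model, and 38 on the minus strand, where it is the 3′ end. Over all listed bins, E001 made up 19.8% of those of at least 600 bases, 9.56% of those from 150 to under 600 bases and 4.63% of those under 150 bases. A member fell in 1 transcript model in 245 cases and in several in 82.

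Compared with shorter listed bins that also had uninjected reads, the members had lower reads per kb, and the differences were not tested because all classes come from the selected list. Median reads per kb in MO-injected embryos were 25.2 for the 327 long bins, 61.0 for the 379 bins from 150 to under 600 bases and 206 for the 494 bins under 150 bases. In uninjected embryos the medians were 3.02, 7.88 and 24.8 in the same order of classes. Requiring 1 read sets a floor of reads per kb that is higher for shorter bins. Median reads per bin ran the other way, at 37, 16.7 and 11 in MO-injected embryos. In uninjected embryos they were 3.75, 2.25 and 1.5. Median log2 ratios were 2.77, 2.60 and 2.58, and groups did not overlap in 80.7%, 71.2% and 74.3% of bins.

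The level of the host gene was listed for a minority of members. Of the 294 hosts, 49 (16.7%) were in the authors' deposited stage 15 level table, beside at most about 13.2% of genes tested. There, 15 hosts (5.10%) were higher in MO-injected embryos, beside at most about 5.93% of genes tested, and 34 (11.6%) were lower, beside at most about 7.22%. Hosts of all 1200 listed bins with an uninjected read were alike, with 147 of 904 in the level table (16.3%), 39 higher and 108 lower. The direction of that table was set from these data, since the log2 ratio of bin reads and the deposited level change had a Spearman correlation of 0.69 over 169 genes. Both come from the same embryos, and a gene's level counts the reads of its bins, so the shares are a description and ratios are not compared between these hosts.

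The following examples were chosen after their values were seen. Bin E012 of mthfd1, a folate enzyme, had 436, 362 and 340 reads in MO-injected embryos, against 41, 5, 57 and 36 in uninjected embryos, and its level change in the authors' deposited table was -1.40 on the log2 scale. Bin E001 of scrib, a cell polarity scaffold, had 44, 126 and 143 reads in MO-injected embryos, against 2, 7, 6 and 16 in uninjected embryos, with a level change of -1.03 in the authors' deposited table. Both were separated between groups. Bin E001 of ano10, an anoctamin, had 302, 254 and 492 reads in MO-injected embryos, against 23, 35, 12 and 22 in uninjected embryos, with a level change of 2.51 in the authors' deposited table.

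By function, the hosts spread over many roles. Lists hold genes by symbol or name start and are not complete, so their counts are not totals for a role. Each list is given with its share of the 294 hosts beside its share of the hosts of all listed bins. Medians are set beside 1.55 and 2.77, the medians of log2 usage and log2 ratio over all members. Counts without overlap, in this and the following lists, are set beside 80.7% of all members and 75.5% of all listed bins. The lists are small, and their differences from these shares were not tested. The list of membrane transport, adhesion and matrix genes had 25 members in 21 hosts (7.14%, beside 6.31%), a median log2 ratio of 2.69 and no overlap in 15. It includes atpaf2, tmem205 and tmem79 by symbol or name start alone, so these shares do not measure the role. Bin E014 of slc5a8, a monocarboxylate transporter, had 323, 1020 and 543 reads in MO-injected embryos, against 10, 8, 21 and 15 in uninjected embryos. Bin E008 of pcdh19, a protocadherin, had 50, 45 and 48 reads in MO-injected embryos, against 3, 0, 5 and 4 in uninjected embryos. Of these 21 hosts, 6 were listed as lower and 1 as higher in the authors' deposited level table.

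Ubiquitin and trafficking genes had 13 members in 11 hosts (3.74%, beside 4.30%), all 13 without overlap, with a median log2 ratio of 3.20. Bin E021 of usp25, a deubiquitinase, had 39, 58 and 23 reads in MO-injected embryos, against 3, 3, 1 and 1 in uninjected embryos. Cytoskeletal, ciliary and GTPase genes had 12 members in 12 hosts (4.08%, beside 4.88%), 9 without overlap, with a median log2 ratio of 2.76. Bin E001 of the myosin gene myo1e.2 had 57, 52 and 50 reads in MO-injected embryos, against 8, 3, 2 and 5 in uninjected embryos. The list of RNA binding and processing genes held 5 members in 3 hosts (1.02%, beside 2.58%), snrnp48, dhx8 and nxf1, all without overlap. It leaves out other members of such roles, among them gpkow, exosc2, pan3 and pdcd7, so these shares do not measure the role. Bin E005 of dhx8, a splicing helicase, had 53, 111 and 86 reads in MO-injected embryos, against 18, 6, 17 and 16 in uninjected embryos.

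Transcription factor genes had 6 members in 5 hosts (1.70%, beside 2.96%), 5 without overlap, with a median log2 ratio of 3.73. Bin E008 of isl1, a LIM-homeodomain factor of motor neurons and heart, had 2101, 1966 and 1977 reads in MO-injected embryos, against 70, 21, 80 and 58 in uninjected embryos. It was even over MO-injected embryos, at 938 ± 34.9 reads per kb (SD, n = 3), against 26.7 ± 12 in uninjected embryos (SD, n = 4). The level change of isl1 in the authors' deposited table was 1.25 on the log2 scale, and the part of the reads of E008 in it was not tested. Bin E003 of foxp4, a forkhead factor, had 118, 99 and 89 reads in MO-injected embryos, against 18, 1, 6 and 11 in uninjected embryos. Bin E004 of pax3, a factor of the neural plate border and neural crest, had 15, 8 and 19 reads in MO-injected embryos, against 1, 0, 1 and 1 in uninjected embryos. All 3 were separated between groups.

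The list of FGF and other kinase signalling genes had 6 members in 6 hosts (2.04%, beside 1.34%), 5 without overlap. They were fgfr4, dusp16 and pten, described above, and dusp27, ppp2r2b and ppp2r5a. Only fgfr4 among them encodes a kinase, and the others belong to phosphatases. The list leaves out the members in shoc2 and rps6ka3, so these shares do not measure the role. The overlap was in dusp27, with 18, 0 and 6 reads in MO-injected embryos, against 1, 0, 2 and 2 in uninjected embryos. The BMP and Nodal list held 1 host (0.340%, beside 0.478%), bmp7.1, and the Wnt, Notch and Hedgehog list held none of its 6 listed hosts. The chromatin list (0.680% of hosts, beside 1.63%) held phf21a and ing4, and it leaves out tada1 of the SAGA coactivator complex. For ing4, a histone mark reader, E001 had 38, 34 and 55 reads in MO-injected embryos, against 16, 4, 13 and 9 in uninjected embryos. The list of cell division genes (1.02% of hosts, beside 1.91%) held plk3, cdk4 and, by its name alone, the export gene mcm3ap, all without overlap. Though drawn up for DNA replication and repair too, it leaves out lig3 and topbp1. Bin E009 of cdk4, a cyclin-dependent kinase, had 38, 70 and 162 reads in MO-injected embryos, against 12, 4, 9 and 4 in uninjected embryos. The phosphatase ctdsp2 had 2 members, E001 with 165, 418 and 178 reads in MO-injected embryos, against 5, 9, 11 and 12 in uninjected embryos, and E043 with 10, 12 and 11 against 1, 0, 4 and 0.

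At stage 10, other embryos were measured and the authors listed 228 bins, at most about 0.140% of those tested. Of the 327 members, 31 (9.48%) were listed there too, in 28 host genes, and they made up 13.6% of the stage 10 list. The share was 8.50% over all 1200 listed stage 15 bins with an uninjected read and 10.3% over those from 150 to under 600 bases. Groups did not overlap in 29 of the 31 at stage 15, in 30 at stage 10 and in 28 at both. At stage 15 the share was 80.7% over all members and 75.5% over all listed bins. For the stage 10 list it was not computed. The 31 bins were selected at both stages, so these counts are a description. The median log2 ratio was 4.55 at stage 15 and 3.24 at stage 10. It was 3.17 at stage 10 with the 6 bins without an uninjected read there set at the floor of 3 reads over the group. For these 6 bins the bound was taken without the pseudocount that the other values carry. Among the 25 with uninjected reads at stage 10, the ratio was larger at stage 15 in 19 and at stage 10 in 6. In the authors' deposited tables the median log2 usage change was 2.12 at stage 15 and 1.64 at stage 10. No test of the difference between stages was made. Raw reads, here and in the shared members below, carry the unknown depth of each library, and scaling was done for stage 15 bins only. Differences in raw reads or ratios between the stages are thus not read as a change with stage.

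**Figure D4:**
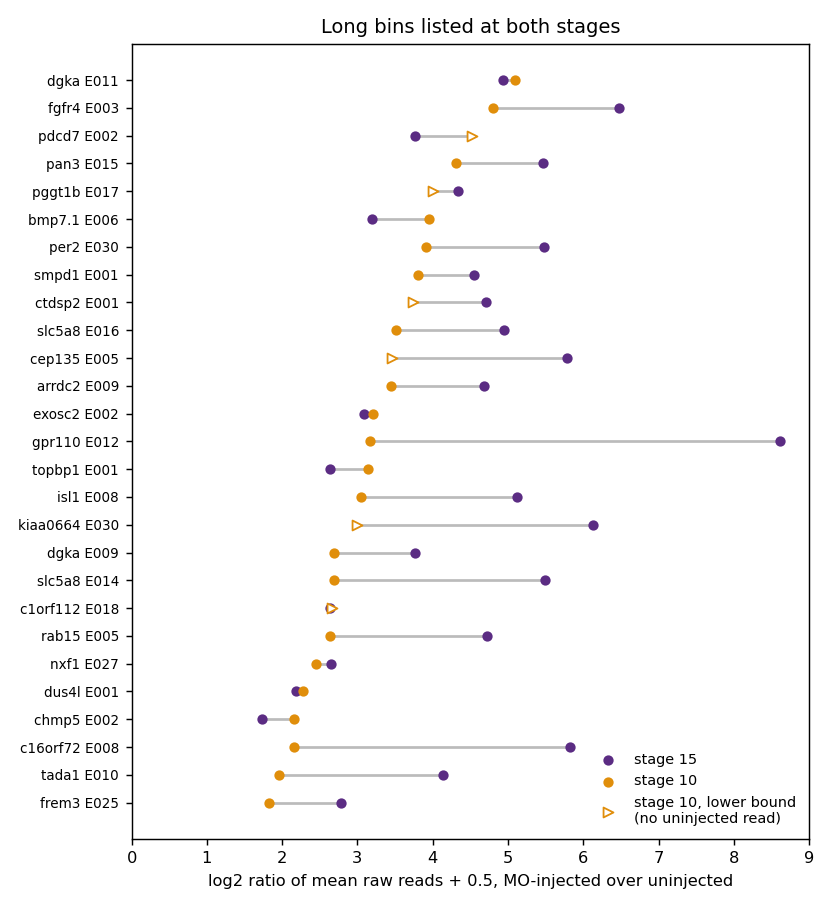
Log2 ratio of mean raw reads plus 0.5, MO-injected over uninjected, at stage 15 and at stage 10 for the 27 long bins in genes with a name that were listed at both stages. Open triangles mark the 6 lower bounds of bins with no uninjected read at stage 10, taken without the added 0.5. The widest gap between the stages, in raw reads not corrected for depth, is in gpr110 E012.

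Of the shared members, fgfr4 E003 was the most heavily read at both stages. At stage 10 it had 6112, 6578 and 4489 reads in MO-injected embryos, against 269, 160 and 186 in uninjected embryos. In isl1 E008 the stage 10 reads were few, at 59, 31 and 12 in MO-injected embryos, against 2, 0 and 9 in uninjected embryos, while both groups had more at stage 15. In per2 E030 there were 5, 54 and 22 reads in MO-injected embryos, against 1, 1 and 2 in uninjected embryos, at stage 10. Each was separated between groups at both stages.

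In c16orf72 E008 the uninjected embryos differed between stages. It had 175, 183 and 233 reads in MO-injected embryos, against 6, 2, 0 and 4 in uninjected embryos, at stage 15. At stage 10 it had 254, 343 and 320 in MO-injected embryos, against 92, 40 and 73 in uninjected embryos. Both groups had fewer reads at stage 15, and the uninjected embryos by more. In frem3 E025, of which the stage 15 reads are given above, both groups also had fewer reads at stage 15, with 62, 152 and 137 reads in MO-injected embryos, against 52, 9 and 37 in uninjected embryos, at stage 10.

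Further shared members were pan3 E015, of a deadenylase subunit, exosc2 E002, of the RNA exosome, nxf1 E027, of the mRNA export receptor, and pdcd7 E002, of the minor spliceosome. pan3 E015 had 80, 123 and 127 reads in MO-injected embryos, against 3, 2, 2 and 1 in uninjected embryos, at stage 15, and 33, 63 and 31 against 3, 1 and 1 at stage 10. exosc2 E002 had 63, 142 and 203 reads in MO-injected embryos, against 11, 8, 16 and 27 in uninjected embryos, at stage 15, and 126, 187 and 135 against 11, 12 and 24 at stage 10. Both were separated between groups at both stages. nxf1 E027 had 4, 31 and 20 reads in MO-injected embryos, against 1, 3, 3 and 3 in uninjected embryos, at stage 15, and 27, 18 and 22 against 4, 2 and 5 at stage 10. pdcd7 E002 had 25, 28 and 47 reads in MO-injected embryos, against 0, 1, 5 and 2 in uninjected embryos, at stage 15, and 45, 15 and 9 against none at stage 10.

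Also shared were bmp7.1 E006, gpr110 E012, and slc5a8 E014 and E016. The BMP ligand bin bmp7.1 E006 had 29, 36 and 36 reads in MO-injected embryos, against 4, 8, 1 and 0 in uninjected embryos, at stage 15, and 4, 22 and 11 against 1, 0 and 0 at stage 10. gpr110 E012 had 16, 0 and 5 reads in MO-injected embryos, against 1, 0 and 0 in uninjected embryos, at stage 10, and overlapped there. slc5a8 E016 had 125, 468 and 282 reads in MO-injected embryos, against 8, 3, 18 and 7 in uninjected embryos, at stage 15, and 10, 6 and 11 against 0, 1 and 0 at stage 10. slc5a8 E014 had 4, 18 and 12 reads in MO-injected embryos, against 1, 1 and 2 in uninjected embryos, at stage 10. At stage 10 all but gpr110 were separated between groups, at low counts.

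Of the others, smpd1 E001, of acid sphingomyelinase, had 19, 44 and 76 reads in MO-injected embryos, against 3, 1, 0 and 2 in uninjected embryos, at stage 15, and 37, 31 and 21 against 1, 3 and 1 at stage 10. tada1 E010, of the SAGA coactivator complex, had 147, 162 and 412 reads in MO-injected embryos, against 16, 7, 19 and 11 in uninjected embryos, at stage 15, and 178, 121 and 86 against 32, 32 and 34 at stage 10. rab15 E005, of a small GTPase, had 93, 165 and 256 reads in MO-injected embryos, against 17, 0, 1 and 6 in uninjected embryos, at stage 15, and 122, 170 and 75 against 9, 21 and 28 at stage 10. These 3 did not overlap between groups at either stage. chmp5 E002, of the ESCRT machinery, had 143, 426 and 417 reads in MO-injected embryos, against 39, 72, 198 and 84 in uninjected embryos, at stage 15, and overlapped there. At stage 10 it had 11, 17 and 22 reads in MO-injected embryos, against 4, 3 and 3 in uninjected embryos. topbp1 E001, of a DNA replication checkpoint protein, had 40, 49 and 68 reads in MO-injected embryos, against 6, 5, 17 and 4 in uninjected embryos, at stage 15, and 24, 15 and 8 against 0, 1 and 3 at stage 10.

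The remaining shared members in named genes were dgka E009 and E011, dus4l E001, arrdc2 E009, cep135 E005, kiaa0664 E030, ctdsp2 E001, c1orf112 E018 and pggt1b E017. The last 5 had no uninjected read at stage 10. pggt1b E017, of a protein prenyltransferase subunit, had 91, 84 and 82 reads in MO-injected embryos, against 1, 3, 9 and 2 in uninjected embryos, at stage 15, and 28, 4 and 16 against none at stage 10. kiaa0664 E030 had 136, 143 and 191 reads in MO-injected embryos, against 6, 0, 0 and 1 in uninjected embryos, at stage 15, and 9, 9 and 6 against none at stage 10. The other 4 shared members lie in genes known only by Xetro identifiers.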

How the data were processed

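RNA-seq libraries were made from polyadenylated RNA of individual embryos. Tools named in the submitters' processing notes, without versions, are Bowtie and TopHat, Cufflinks with Cuffdiff, and DESeq with DESeq2. No genome build or annotation is stated in the sources used here. Per the file headers, the authors deposited for each listed bin its position, raw counts per embryo, the mean of these (a signal), usage scores fitted per condition, a log2 usage ratio and the raw and adjusted p-value. For 14 members the authors also deposited a retention score of 1 (5 members) or 2 (9), whose meaning is not explained and which was left unused. The authors' deposited level tables hold a mean normalised count (a signal), a log2 fold change and a p-value per gene. Since the deposited usage ratio has MO-injected in the denominator, its sign was reversed.

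In the stage 15 table the names of the count columns say stage 10, but they were used as stage 15, since the table has 4 uninjected columns and its fitted columns are named for stage 15. A plain repeated header was dropped, and 1 bin whose name and gene field disagree was used by its gene field. Counts were divided by bin width in kb. The deposited means equal plain means of the counts, so the authors' size factors could not be derived from them. The counts were left raw, and raw ratios are not ratios corrected for depth. No model was fitted because the lists are selected, and depth per library is unknown. The number of bins or genes tested is a lower bound, derived from how Benjamini-Hochberg adjustment ties adjusted to raw values. Counting intervals of ratios are exact (Clopper-Pearson on the share of reads, 95%) and cover counting error only. Gene symbols were matched to RefSeq's table of assembly UCB_Xtro_10.0: 222 hosts by symbol and 10 by synonym, with 54 Xetro and 8 other identifiers. Calculations used Python 3.11.15, numpy 2.4.6, pandas 2.3.3 and scipy 1.17.1, with the ratio and interval code tested on simulated counts.

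Members named were the 8 with the smallest adjusted p in genes with a RefSeq symbol, the 5 at each end of width (widest only), uninjected reads per kb, ratio and, with a mean of at least 20 uninjected reads, coefficient of variation. All members of genes with 3 or more, those listed at stage 10, examples of each function list and the bins at the width limit were also named. One named member is not reported here. Function lists hold their members by symbol or name start. The members and lists were chosen with earlier results of these data known.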

Additional observations from a re-analysis of the deposited data

Results flagged for a closer look

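In 13 of the 62 named members, the highest or lowest of the 4 uninjected stage 15 embryos stood apart from the rest by Dixon's criterion, and in 67 of all 327 members. Chance gives about 1 in 20, a rate that does not hold for small whole-number counts, and 7 of the 13 had under 10 uninjected reads in all. With so few reads, a single read in 1 embryo meets the criterion. This was so for gpr110 (1 read), slc20a2 (1), arrdc2 (1), shoc2 (1) and frem3 (1), and otc had 2 reads and kiaa0664 had 6 in the embryo that stood apart. In dgka E011 1 uninjected embryo held 11 reads and the others none. In nxf1 the first uninjected embryo stood apart below the others, with 1 read against 3 in each.

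At higher counts, the third uninjected embryo stood apart above the others in topbp1 (17 reads), c1orf112 (20), lzts2 (78) and gpkow (139). That embryo was also alone the highest uninjected embryo in 106 members, and its library depth is unknown.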

How the results depend on the processing

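No paired analysis was possible because the count columns carry a number that no label ties to an embryo, and no test was run. With a width limit of 1000 bases there were 194 members, 158 without overlap, 31 hosts in the level table and 20 members listed at stage 10. With at least 10 uninjected reads there were 197 members, 157 without overlap and 27 hosts in the level table. Their medians were 45.2 reads per kb in MO-injected embryos and 6.07 in uninjected embryos, with an uninjected coefficient of variation of 61.8% and a log2 usage change of 1.35. Scaled to each embryo's total over listed bins, the median log2 ratio was -0.38, with 11.7 and 16.1 reads per kb in MO-injected and uninjected embryos, 38 members without overlap and an MO-injected coefficient of variation of 42.4%. This scaling removes by construction any difference that the listed bins share. Such a difference can come from library depth or from the choice of bins used more in MO-injected embryos. These cannot be told apart here, since depth is unknown.

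Leaving out 1 embryo at a time gave medians of 20.5 to 28.3 reads per kb in MO-injected embryos and 2.76 to 3.18 in uninjected embryos. The median log2 ratio was then 2.58 to 3.00, and 265 to 289 members were without overlap. Leaving out an embryo can only keep or raise that count, which was 264 with all embryos, so its range does not measure stability. Coefficients of variation were 31.7% (without the first) to 47.8% in MO-injected and 69.3% to 78.1% in uninjected embryos. Pseudocounts of 0.1 and 1 gave median log2 ratios of 2.98 and 2.62. Ratios of the 58 members with 1 to 3 uninjected reads are limited by counting, and raw counts are not corrected for depth.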
